A study of Caenorhabditis elegans with 2 samples.

Results

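The weak reproducible sites of DPL-1 are 290 regions of the Caenorhabditis elegans genome that carried a peak in both biological replicates but fell below the cut of the authors' list of reproducible peaks. They were chosen by the authors' signal values and by position. Each was a nuclear peak ranked 1547 to 5000 by signal in the list called on the pooled reads, with a summit over 1000 bp from any summit of the optimal list and over 250 bp from any tRNA gene. Each also had a summit within 100 bp among the 5000 peaks of highest signal in replicate 1 and in replicate 2. The 290 sites were 9.72% of the 2983 pooled peaks that met the rank and distance conditions, and 0.967% of all 30000 pooled peaks. The authors label this pooled list as peaks and background, so not every entry called a peak here need be one. The optimal list holds the peaks kept by the irreproducible discovery rate (IDR), which measures how well the ranks of peaks hold between separate calls, and on the ce11 assembly it was the 1546 pooled peaks of highest signal.

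DPL-1 is the worm DP protein, which binds DNA as a dimer with an E2F factor such as EFL-1. With the pocket protein LIN-35 and the MuvB proteins the dimer forms the DREAM complex, which is known for repressing cell cycle and germline genes and for keeping germline genes silent in the soma. E2F-type elements are read by the E2F-DP dimer, and the CHR element, found beside the starts of cell cycle genes, is read by the MuvB protein LIN-54.

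The data came from chromatin immunoprecipitation and sequencing (ChIP-seq) of 1 group of whole young adult worms of mixed sex, in 2 biological replicates. The strain, YL390, carried the unc119(ed3) III mutation and the vrIs48 transgene, in which the pie-1 promoter, a germline promoter, drives DPL-1 fused to GFP and FLAG, with the dpl-1 3′ UTR and an unc-119(+) rescue gene. The samples' description field gives the GFP-tagged protein as the target of the ChIP, while the antibody field names dpl-1. There was no second condition, so the sites were compared with 2 other sets of peaks from the same libraries. The optimal IDR peaks were the 1471 nuclear ones over 250 bp from a tRNA gene, and the unmatched peaks were the 2693 that met the rank and distance conditions but lacked a match in at least 1 replicate. The peak lists hold no read counts, so depth is unknown, and the intervals below cover counting of peaks only.

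A set of 6 sites, chosen for a motif match near the summit, gives examples of the sequence there. They were taken from chromosomes II to X, and were for each motif the 3 sites of highest pooled signal there with a match centred within 10 bp of the summit. The E2F-type motif was TTCCCGC or TTCGCGC or TTGCCGC or TTGGCGC, and the CHR-type motif was TTCGAA or TTTGAA, each searched on both strands. The sequences are given from the plus strand of WBcel235, which is the ce11 sequence, from 5′ to 3′, with the match in capitals. The first 3 hold an E2F-type match, at chrIV:984236-984264 in a noncoding exon part of plx-1 (a plexin receptor), at chrV:5722173-5722201 between genes near rga-3, and at chrX:12975878-12975906 upstream of ppk-3 (a lipid kinase of the PIKfyve type). The other 3 hold a CHR-type match, at chrII:14312351-14312378 between genes near ctl-3 (a catalase), at chrIII:783454-783481 between dagl-2 and ppm-1.G (a diacylglycerol lipase and a protein phosphatase), and at chrIV:261813-261840 upstream of pqbp-1.1 (a polyglutamine-binding protein).
plx-1: cgggtttttcaGCGCGAAaaaaatgtctt
rga-3: attatgatggcGCGGGAAacattcataga
ppk-3: aagaaaagttaTTCCCGCgcaattagacg
ctl-3: cgtactccagaTTCAAAggagcacactt
dagl-2: gttggagcgcgTTTGAAattcgtggccg
pqbp-1.1: ttacgagggagTTCAAAtagagtttttt
A match describes the letters at the summit and does not show which protein bound there. The 6 sites do not stand for all 290, of which 70 held an E2F-type match within 100 bp of the summit. A CHR-type match stood at 49.7% of the summits and in 48.6% of windows centred 500 bp away.

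Most candidates below the optimal list were not matched in the top 5000 of both replicates, and the share that was fell steeply with rank. Of the 2983 candidates, 913 had a match among the top 5000 of replicate 1 and 1449 among those of replicate 2, and 911 had neither. In pooled ranks 1547 to 2000, 171 of 379 candidates (45.1%) were matched in both. The share was 17.5% (70 of 401) at ranks 2001 to 2500, 7.23% (31 of 429) at ranks 2501 to 3000, 1.48% (13 of 879) at ranks 3001 to 4000 and 0.559% (5 of 895) at ranks 4001 to 5000. Among the optimal IDR peaks, 83.4% (1227 of 1471) met the same condition of a match in both replicates. With no rank limit in the replicate lists, 1322 of the 2983 candidates had a match in both. The pooled and replicate signals share their reads and the rule used both, so these shares are a description and were not tested.

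The sites lay mostly at the upper end of the rank window. Their pooled ranks ran from 1548 to 4424 with a median of 1892.5. Their pooled signals ran from 11.4 to 23.7 with a median of 20.1, and the signal of the last optimal peak was 23.74. In replicate 1 their signals ran from 6.04 to 16.8 (median 8.24) and their ranks from 636 to 4951 (median 2258.5). In replicate 2 the signals ran from 7.52 to 20.2 (median 10.8) and the ranks from 1165 to 4999 (median 2646.5). No site ranked within 1546 in both replicates, 18 were within the top 2000 of both, and 177 ranked better in replicate 1 and 113 in replicate 2. The authors' −log10 q in the pooled list ran from 2.02 to 3.51 (median 3.10), and 31 sites reached the 3.51 that all optimal IDR peaks carried. All sites were 290 bp wide.

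**Figure D1:**
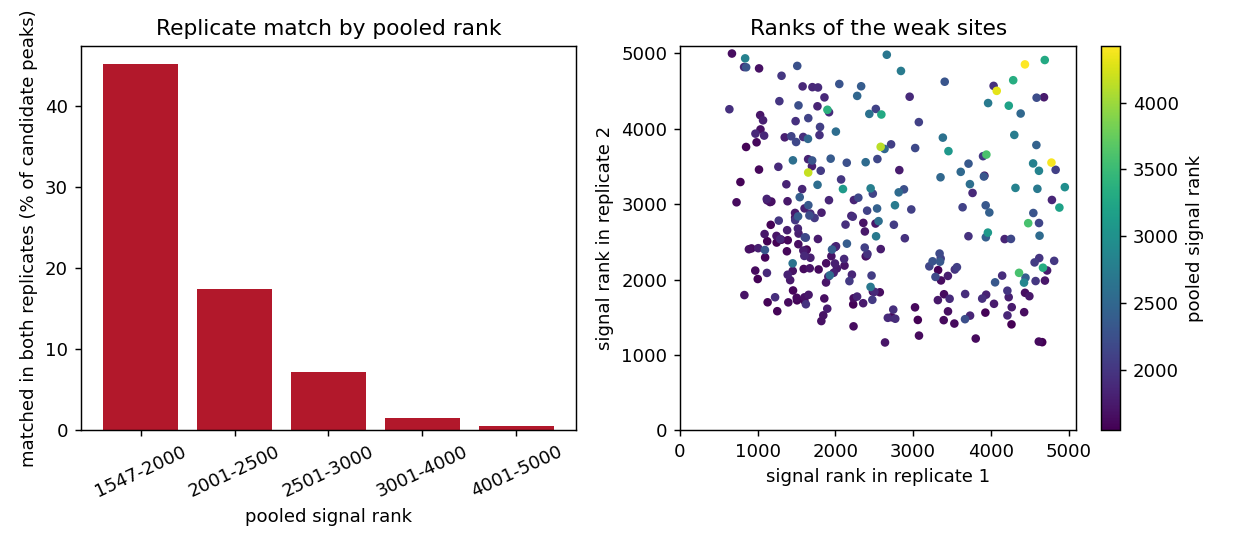
Left, bars give the share of candidate peaks matched in both replicates, in percent, by band of pooled signal rank. Right, each point is a weak site, placed by its signal rank in replicate 1 and in replicate 2 and coloured by its pooled rank, where rank 1 is the strongest peak; the share was 45.1% in the first band and 0.559% in the last, and no point lies within rank 1546 in both replicates.

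The limits of the rule cut through a continuum. The site with the best pooled rank, at unc-11, had a signal of 23.734 against 23.740 in the last optimal peak. The site nearest the replicate limit, at mtrr-1, ranked 4999 in replicate 2, while a peak between eif-2D and ndub-5 missed the limit at 5028. The site closest to an optimal summit, at sup-35, lay 1043 bp away, and a peak at cnx-1 that met all else lay 951 bp away and was left out. The larger of a site's distances to its replicate summits had a median of 44.5 bp and reached 98 bp at Y45G5AL.1, while a peak at ccch-3 missed the limit at 101 bp. The pooled rank limit cut almost nothing, since only 5 further sites, the first of them at natc-2 with rank 5021, met all other conditions between ranks 5000 and 10000.

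At some of the strongest promoter sites, ranks in the replicates were uneven. They were closer at others, such as syp-4 (1601 and 1720) and the site between F13H10.8 and mogs-1 (1252 and 1580). The site 341 bp upstream of unc-11, which encodes a clathrin adaptor of the AP180 type, lay at chrI:3805935-3806224 with a pooled signal of 23.7, and ranked 1244 in replicate 1 and 2491 in replicate 2. The site 114 bp upstream of prde-1, which encodes a nuclear factor for transcription of piRNA precursors, at chrV:15537985-15538274, ranked 1631 in replicate 1 and 2397 in replicate 2. The site 313 bp upstream of rps-11, a small-subunit ribosomal protein gene, at chrIV:11602183-11602472, ranked 4660 in replicate 1 and 1169 in replicate 2. The last of these was near the limit of 5000 in replicate 1 and within the first 1546 ranks in replicate 2.

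The 15 strongest promoter sites spanned a narrow range of pooled signal, which follows from their choice by that signal below the last optimal peak. The site at sqv-6, the xylosyltransferase that begins glycosaminoglycan chains, had a pooled signal of 23.5 and ranks of 2229 and 1670 in replicates 1 and 2. The site between sqv-3, the galactosyltransferase that acts after it, and vha-1, a membrane subunit of the vacuolar ATPase, had a signal of 23.5 and ranks of 1168 and 2726. Between gst-43, a glutathione transferase, and copa-1, the alpha subunit of the COPI coat, the signal was 23.6 and the ranks were 4265 and 1405. The 3 pooled signals were nearly alike, while the replicate ranks were far apart at the sqv-3 and gst-43 sites and closer at sqv-6.

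The other sites among the 15, chosen in the same way, had signals as close together. The site between gcna-1, a germ cell nuclear protein with a protease domain, and eftu-2, a GTPase of the U5 spliceosomal particle, had a signal of 23.5 and ranks of 1001 and 2007. The site between snx-13, a sorting nexin, and snr-1, a spliceosomal Sm protein, had a signal of 23.5 and ranks of 778 and 3294, with an E2F-type match 17 bp and a CHR-type match 37 bp from the summit. The site 130 bp upstream of syp-4, which encodes a protein of the synaptonemal complex, had a signal of 23.3 and ranks of 1601 and 1720. The remaining sites among the 15 lay at metl-17, hyl-2, mter-4, zig-11, between F13H10.8 and mogs-1 and between F22G12.5 and F22G12.4, with signals from 23.3 to 23.7.

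The sites placed best in both replicates were taken as the 10 whose worse replicate rank was best. The site between F13H10.8 and mogs-1, the glucosidase that starts trimming of N-linked glycans, at chrIV:11019977-11020266, ranked 1252 in replicate 1 and 1580 in replicate 2. The site 142 bp upstream of pqbp-1.1, shown above, ranked 1620 and 1672. The site between the core histone genes his-62 and his-61, at chrIV:7486277-7486566, ranked 1602 and 1764, that of mask-1, an ankyrin-repeat protein gene, 1224 and 1765, and that of vha-19, a vacuolar ATPase subunit gene, 829 and 1794. The syp-4 site was also among these 10. Another 4 lay outside promoter windows, with ranks in replicates 1 and 2 given in brackets, near F29C12.6 (1394 and 1697), in an intron of znf-236 (1128 and 1698), upstream of exc-4 (1506 and 1724) and in lin-35 (1502 and 1758). All 10 ranked worse in replicate 2 than in replicate 1.

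The weak sites were mostly promoter sites. Promoter windows covered the 1000 bp before and the 500 bp after each annotated start of a protein-coding gene, and 222 of 290 weak sites (76.6%, 95% Wilson interval 71.3 to 81.1) had their summit in one. The share was 86.4% (1271 of 1471) in the optimal IDR peaks, a difference of -9.85 percentage points (95% Newcombe interval -15.3 to -4.98). In the unmatched peaks it was 50.4% (1358 of 2693), a difference of 26.1 points (20.6 to 31.0). Both intervals leave out 0, so the share of the weak sites lay between those of the optimal IDR peaks and the unmatched peaks.

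Rank moves with these shares. The median pooled rank was 1892.5 in the weak sites, 759 in the optimal IDR peaks and 3478 in the unmatched peaks. Against the 503 optimal IDR peaks ranked after 1000, of which 79.3% lay in promoter windows, the weak sites differed by -2.77 points (-8.94 to 3.10), an interval that holds 0. Between peaks of pooled rank up to 2500, the share was 77.6% (187 of 241) in weak sites, of median rank 1842, and 66.2% (357 of 539) in unmatched peaks, of median rank 2105. That difference was 11.4 points (4.49 to 17.7), smaller than over the whole rank window.

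Most weak sites lay upstream of the nearest start, though fewer than of the optimal IDR peaks. The median signed distance from a weak summit to the nearest annotated start was -173 bp (quartiles -339.5 and -9.25), where negative values are upstream, against -172 bp in the optimal IDR peaks and -93 bp in the unmatched peaks. Upstream summits were 75.9% of the weak sites, 86.7% of the optimal IDR peaks (difference -10.8 points, -16.3 to -5.89) and 56.9% of the unmatched peaks (18.97 points, 13.4 to 23.9). The difference was -6.64 points (-12.7 to -0.851) against the optimal IDR peaks ranked after 1000, and 8.08 points (1.08 to 14.6) against the unmatched peaks among ranks up to 2500. Summits within 250 bp of a start were 46.2% of the weak sites, 57.0% of the optimal IDR peaks (-10.8 points, -17.01 to -4.54) and 27.3% of the unmatched peaks (18.95 points, 13.05 to 24.9). With the same rank limits these differences were -2.30 points (-9.44 to 4.90) and 8.11 points (0.634 to 15.6), and the first of these intervals holds 0. Windows of genes on opposite strands shared the summit at 67 weak sites (23.1%), against 35.4% of the optimal IDR peaks (difference -12.2 points, -17.4 to -6.53) and 10.1% of the unmatched peaks (13 points, 8.37 to 18.3). Against the optimal IDR peaks ranked after 1000, at 30.4%, this difference was -7.31 points (-13.4 to -0.851). Among ranks up to 2500 the share was 24.5% in weak sites and 19.5% in unmatched peaks, a difference of 5.001 points (-1.13 to 11.6) whose interval holds 0. In all, 146 sites touched 1 gene and 76 touched 2 or more.

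**Figure D2:**
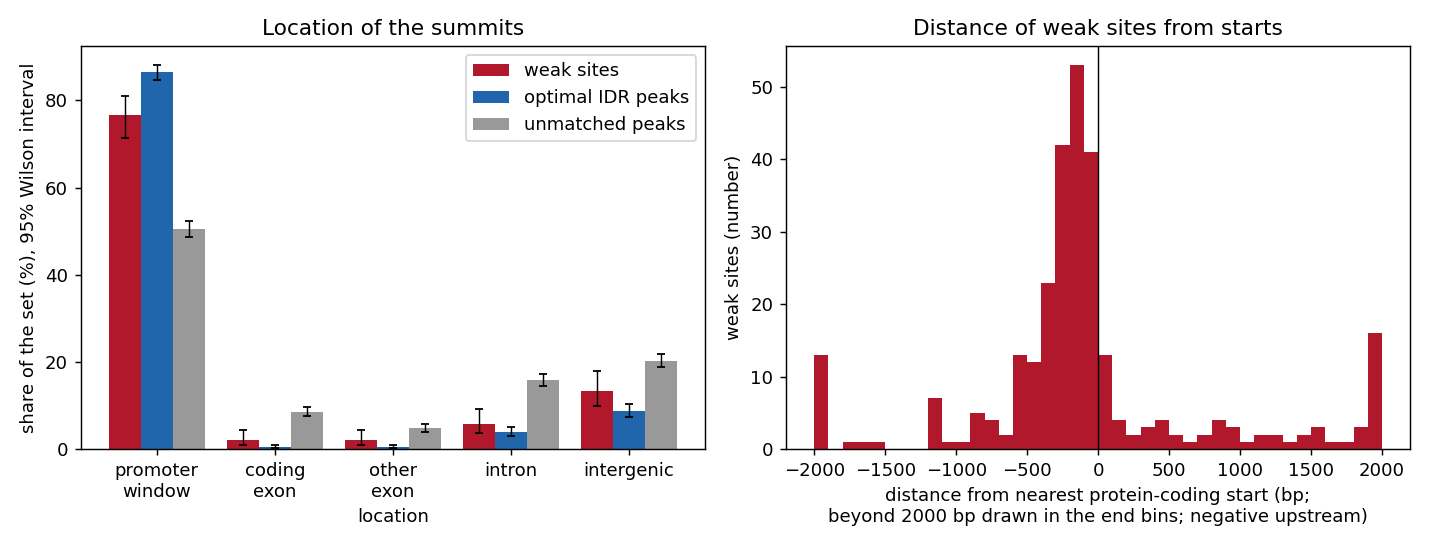
Location of the summits of the weak sites, the optimal IDR peaks and the unmatched peaks by class, as shares of each set with 95% Wilson intervals. Promoter windows held 76.6% of the weak sites, 86.4% of the optimal IDR peaks and 50.4% of the unmatched peaks.

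Outside promoter windows lay 68 weak sites, of which 39 were intergenic, 17 intronic, 6 in coding exons and 6 in noncoding exon parts. Intergenic sites were 13.4% of the weak sites, against 8.84% of the optimal IDR peaks (difference 4.61 points, 0.823 to 9.22) and 20.3% of the unmatched peaks (-6.86 points, -10.7 to -2.21). Intronic sites were 5.86% of the weak sites, 3.94% of the optimal IDR peaks (1.92 points, -0.523 to 5.36) and 15.9% of the unmatched peaks (-9.99 points, -12.6 to -6.41). Against the optimal IDR peaks ranked after 1000 the intergenic difference was 0.923 points (-3.77 to 6.05), and against the unmatched peaks among ranks up to 2500 it was -1.75 points (-6.69 to 3.85), so both intervals then hold 0. With these limits the intronic differences were -0.699 points (-4.02 to 3.11) and -6.52 points (-10.2 to -2.25). Of the 68 sites, 41 were within 2000 bp of a start, and the intergenic sites had a median distance of 1796 bp, from 812 to 13347 bp. These classes are shares of one whole, so a lower promoter share raises the others.

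The strongest intergenic sites were spread over both sides of genes. One lay 1911 bp downstream of a D2085.7 start at chrII:8648913-8649202, with a pooled signal of 23.6 and ranks of 1123 in replicate 1 and 2508 in replicate 2. Another lay 4360 bp upstream of exc-4, which encodes a chloride intracellular channel protein of the excretory canal, with a signal of 23.5. The site 1589 bp upstream of ctl-3, whose sequence is shown above, had a signal of 22.8 and ranks of 3075 and 1256. The others named by strength lay near F29C12.6 (signal 22.6) and 1359 bp past a start of mrpl-51 (signal 22.6), a mitochondrial ribosomal protein gene that had a second weak site in its promoter window.

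Intronic and exonic sites included ones in cyd-1 and lin-35. The strongest intronic sites were in znf-236 (a zinc finger gene, signal 23.4), K08D12.4 (22.8), cyd-1 (cyclin D, 22.7), madf-11 (22.6) and ppat-1 (an enzyme of purine synthesis, 22.3). The cyd-1 site, at chrII:12985201-12985490, ranked 1784 in replicate 1 and 2134 in replicate 2, and lay 2877 bp upstream of the nearest cyd-1 start, inside the annotated gene. A site in a noncoding exon part of lin-35, the pocket protein gene of the DREAM complex, lay at chrI:5815356-5815645 with a signal of 22.7, and the nearest optimal summit was 2746 bp away. The coding-exon sites lay in F29B9.1 (signal 22.6), dpl-1 (18.9), sel-1 (a protein of degradation at the endoplasmic reticulum, 17.3), sac-2 (17.02), cua-1 (a copper-transporting ATPase, 15.6) and T22C1.8 (11.8).

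The site inside the dpl-1 gene itself lay in a coding exon, and the transgene also carries a DPL-1 coding part. The gene lies at chrII:9169910-9172565, and the weak site at chrII:9171352-9171641 ranked 2056 in the pooled list, 4562 in replicate 1 and 2227 in replicate 2. Its summit was 1763 bp from an optimal IDR peak just upstream of the gene, which had a signal of 30.4 and a rank of 1152. The pooled list held 6 peaks over or beside dpl-1, with signals from 11.4 to 30.4, and 3 of them had a summit in a coding exon. T23G7.2 overlaps the same bases. The coding-exon class was taken over all protein-coding genes together, so it does not show whose coding sequence holds the summit. The part of the transgene's own DNA in these peaks was not tested.

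A larger share of the weak sites than of the optimal IDR peaks lay on the X chromosome. On X lay 29 of 290 weak sites (10%, 7.05 to 13.99), against 34 of 1471 optimal IDR peaks (2.31%), a difference of 7.69 points (4.61 to 11.7). In the unmatched peaks X held 10.6% (286 of 2693), a difference of -0.620 points (-3.81 to 3.52). The weak sites stood at 1.64 per Mb of X and 3.16 per Mb of autosome, a ratio of 0.518, where the ratio was 0.110 in the optimal IDR peaks and 0.554 in the unmatched peaks. Against the optimal IDR peaks ranked after 1000, of which 4.37% lay on X, the difference was 5.63 points (1.97 to 9.88). Among peaks of rank up to 2500, 8.71% of the weak sites and 7.24% of the unmatched peaks were on X, a difference of 1.48 points (-2.39 to 6.12).

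On the autosomes no difference between the weak sites and the optimal IDR peaks was larger than counting error. Chromosome I held 57 weak sites (19.7%), II held 46 (15.9%), III held 59 (20.3%), IV held 56 (19.3%) and V held 43 (14.8%). In the optimal IDR peaks the shares were 22.9% on I, 19.4% on II, 22.2% on III, 17.3% on IV and 15.98% on V, and each of the 5 intervals of the difference held 0. Per Mb the weak sites were densest on III (4.28) and I (3.78) and sparsest among the autosomes on V (2.06). Neighbouring sites were a median of 204571 bp apart. Only 2 pairs lay within 1000 bp, 540 bp apart at mter-4 and 200 bp apart at C26B2.7.

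**Figure D3:**
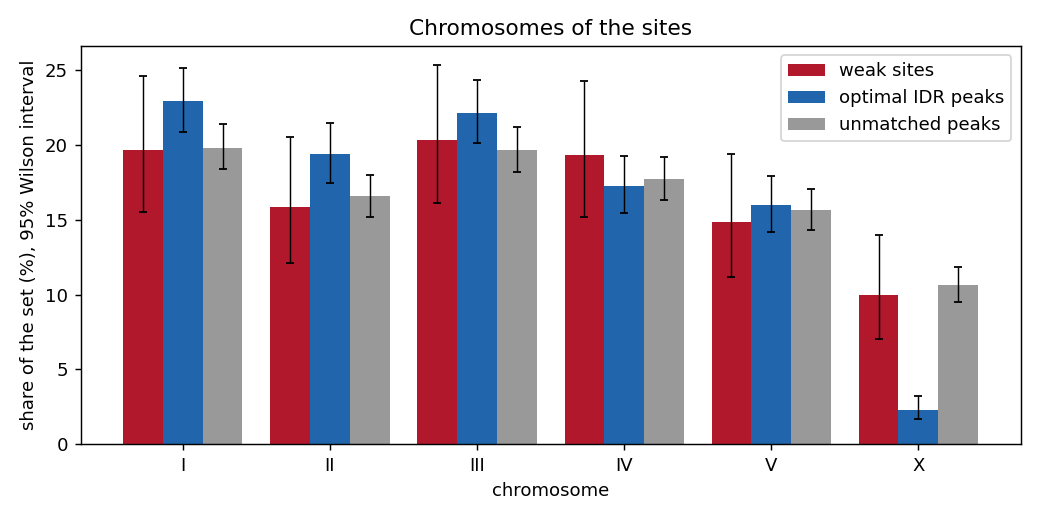
Share of the weak sites, the optimal IDR peaks and the unmatched peaks on each chromosome, with 95% Wilson intervals. X held 10% of the weak sites, 2.31% of the optimal IDR peaks and 10.6% of the unmatched peaks, and on each autosome the intervals of the weak sites and the optimal IDR peaks overlap.

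Of the sites on X, 26 lay in promoter windows and 3 outside them, at genes with varied roles. The strongest, 332 bp upstream of hyl-2 (a ceramide synthase gene) at chrX:4699648-4699937, had a pooled signal of 23.6 and ranked 3321 in replicate 1 and 2125 in replicate 2. It was followed by crn-4, a nuclease gene of apoptotic DNA degradation (signal 22.01, ranks 1948 and 2310), and by the site between glit-1 and dnj-14, for a gliotactin-like protein and a DnaJ chaperone (21.98, ranks 1879 and 1961). The site at lmp-1, a lysosomal membrane protein gene, had a signal of 21.8 and ranks of 1670 and 2149. These 4 sites lay from 81909 to 402231 bp from the nearest optimal IDR summit, and the crn-4 site was the farthest of all weak sites.

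Further sites on X had lower signals. They lay near W07E11.1 (21.6, intergenic), between R07E4.3 and R07E4.5 (21.5), and at spc-1, the alpha spectrin gene (21.5), ppk-3 (21.2), C49F5.6 (20.8) and hst-2, a heparan sulfate sulfotransferase gene (20.6). The ppk-3 site, whose E2F-type match is shown above, ranked 1895 in replicate 1 and 1613 in replicate 2. Of the 29 sites on X, 8 (27.6%, 14.7 to 45.7) held an E2F-type match and 5 (17.2%, 7.60 to 34.5) a CHR-type match, against 62 (23.8%) and 139 (53.3%, 47.2 to 59.2) of the 261 autosomal sites. The lower CHR share on X was noticed in the data, rests on 5 sites and was given no test.

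The E2F-type motif was more frequent at the summits of the weak sites than in their flanks. It lay within 100 bp of the summit at 70 of 290 weak sites (24.14%, 19.6 to 29.4), and in windows of the same 201 bases centred 500 bp to either side at 8.28%, a difference of 15.9 points. The motif was at the summit and not in the flank at 63 sites on either side, and in the flank and not at the summit at 14 sites on one side and 20 on the other (two-sided exact sign test, larger p = 2.43e-06, Benjamini-Hochberg adjusted over 10 motifs 2.43e-05). With a match needed only in replicate 2 the difference was 7.76 points over 1449 sites, and with one needed only in replicate 1 it was 9.80 points over 913 sites. In 19973 promoter windows of the same length, centred 100 bp upstream of the outermost start of each nuclear protein-coding gene, the share was 6.29%. The reversed motif, CGCCCTT or CGCCGTT or CGCGCTT or CGCGGTT, stood at 10.3% of summits and 5% of flanks (exact sign test, larger p = 0.0488, adjusted p = 0.154). Its difference was 5.34 points. It stood at 14.1% of summits and 4.28% of flanks in the optimal IDR peaks (exact sign test, adjusted p = 2.24e-18). In the unmatched peaks the shares were 5.31% and 3.12% (exact sign test, adjusted p = 0.00476). A higher share at summits was thus not particular to the E2F-type motif in those sets. Median GC content was 37.8% at the summits and 36.8% in the flanks.

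The share of sites with the motif also lay between those of the optimal IDR peaks and the unmatched peaks. Beside the 24.14% of the weak sites it was 37.8% in the optimal IDR peaks, a difference of -13.7 points (-18.9 to -7.88), and 12.6% in the unmatched peaks, a difference of 11.5 points (6.80 to 16.9). Against the optimal IDR peaks ranked after 1000, at 27.8%, the difference was -3.70 points (-9.81 to 2.74). Among ranks up to 2500, 24.07% of the weak sites and 18% of the unmatched peaks held it, a difference of 6.07 points (0.0165 to 12.6). Within the weak sites, the 70 with the motif had a median pooled rank of 1877 and the other 220 of 1928. Matches were centred a median of 37 bp from the summit, 22 of them within 25 bp and 30 over 50 bp away. The motif stood at 48 of 222 promoter sites (21.6%, 16.7 to 27.5) and at 22 of 68 others (32.4%, 22.4 to 44.2). The reversed motif fell in the same order, at 14.1% of the optimal IDR peaks, 10.3% of the weak sites and 5.31% of the unmatched peaks. For it the weak sites differed by -3.80 points (-7.33 to 0.582) from the optimal IDR peaks and by 5.03 points (1.90 to 9.15) from the unmatched peaks. The order of the sets was thus not particular to the E2F-type motif.

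The CHR-type motif was not detectably more frequent at the summits of the weak sites than in their flanks. It stood at 144 summits (49.7%, 43.9 to 55.4) and in 48.6% of flanks, a difference of 1.03 points whose sign turned without replicate 1 (-0.656 points) and under several search settings (two-sided exact sign test, larger p = 0.866, adjusted p = 0.866). In the promoter windows described above the share was 56.2%. In the optimal IDR peaks it was 64.4% at summits and 48.2% in flanks (exact sign test, adjusted p = 4.54e-17), and the weak sites differed from that summit share by -14.7 points (-20.9 to -8.49). The 49.7% of the weak sites differed by -1.96 points (-7.98 to 4.06) from the 51.6% of the unmatched peaks, and by -5.81 points (-12.95 to 1.39) from the 55.5% of the optimal IDR peaks ranked after 1000. The reversed motif, AAGCTT or AAGTTT, stood at 24.5% of the weak summits and 33.4% of flanks (exact sign test, adjusted p = 0.154). Both motifs stood together at 32 sites.

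**Figure D4:**
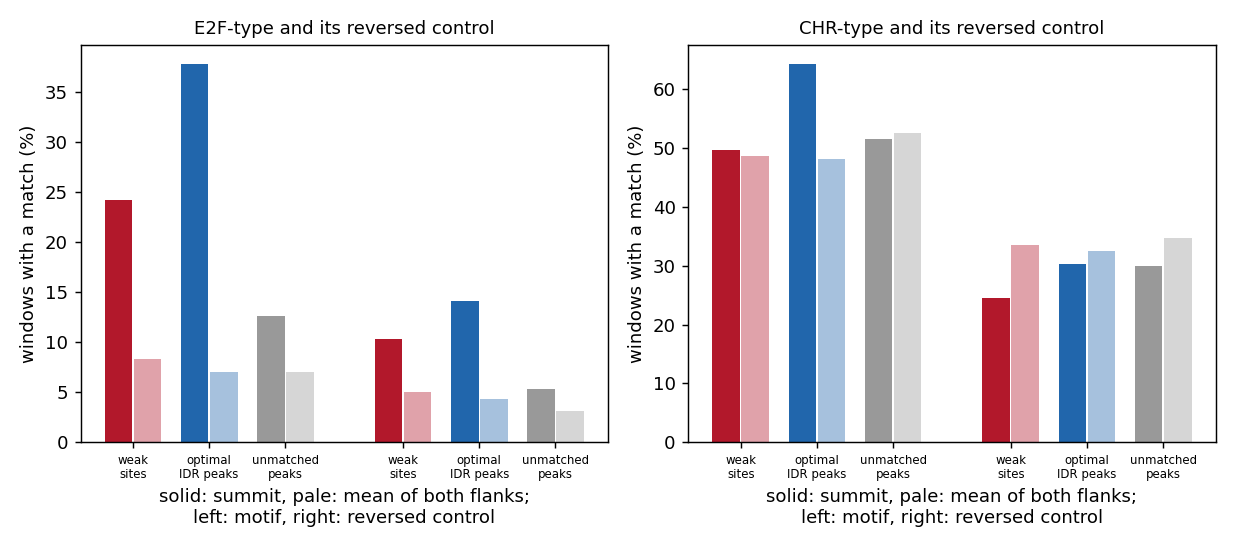
Share of sites with the E2F-type and CHR-type motifs and their reversed sequences within 100 bp of the summit (solid bars) and as the mean of both flanking windows (pale bars), for the weak sites, the optimal IDR peaks and the unmatched peaks. At the summits and in the flanks of the weak sites the E2F-type share was 24.14% and 8.28%, and the CHR-type share 49.7% and 48.6%.

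The genes of the weak sites were largely not those of the optimal IDR peaks. Promoter windows with a weak site belonged to 302 of 19985 protein-coding genes (1.51%), against 1830 genes (9.16%) with an optimal IDR peak. Only 5 genes had both, egl-30 (a G protein alpha subunit of the q class), ntl-2 (a subunit of the CCR4-NOT complex), mask-1, rpl-12 and rpl-31. The rule itself limits this overlap, since sites lie over 1000 bp from optimal summits and windows are 1500 bp long. Of the 18155 genes without an optimal IDR peak, 297 (1.64%) had a weak site. The genes mter-4 and C26B2.7 had 2 sites each, and 34 genes also had an unmatched peak. Without replicate 1, which leaves a match in replicate 2 as the condition, 1013 genes had a site, and without replicate 2 it was 743. By chromosome the share of genes with a weak site ran from 0.941% on V to 2.02% on I, and on X it was 1.14% (31 of 2731), equal to the share there with an optimal IDR peak.

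In the lists of DNA replication and cell cycle genes, most genes had an optimal IDR peak and few had a weak site. Here and in the lists that follow, a gene has a site where a summit lies in its promoter window, and the shares to read the counts against are 1.51% of all genes and 1.64% of genes without an optimal IDR peak. A summit in the windows of several genes counts for each, so the listed gene need not be the nearest. Of 40 DNA replication genes, 2 (5%) had a weak site and 32 an optimal IDR peak, so 2 of the 8 without such a peak had a weak site, rfc-2 (a clamp loader subunit) and cdt-2 (the receptor that targets CDT-1 for degradation). The rfc-2 site had a pooled signal of 20.3 and ranks of 1859 in replicate 1 and 4417 in replicate 2, and the cdt-2 site 18.1, 4258 and 2539. Among 79 cell cycle and mitosis genes 1 (1.27%) had a weak site in its promoter window, air-1 (the Aurora A kinase, signal 17.4), and 57 had an optimal peak. The intronic site in cyd-1 described above is not in that count. Counts this small carry no comparison with the background and are given as descriptions.

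Repair, meiosis and histone genes added a few more. Of 46 DNA repair and checkpoint genes, 3 (6.52%, beside 1.51% of all genes) had a weak site, all among the 25 without an optimal peak, chk-2 (a checkpoint kinase that in worms acts in meiosis) at a signal of 22.1 and the pair msh-2 and hus-1 (a mismatch repair protein and a checkpoint clamp subunit) with a single site of 17.3. Of 37 meiosis genes, 3 (8.11%) had one, all among the 25 without an optimal peak, syp-4, msh-5 (22.98) and spo-11 (22.8), the last of which encodes the enzyme that makes meiotic breaks. The chk-2 site ranked 1819 and 1449 in replicates 1 and 2, the msh-5 site 1017 and 3459, and the spo-11 site 3024 and 1631. Among 72 histone genes, 3 (4.17%) had a weak site and 3 an optimal peak, and of the sites his-61 and his-62 share one and his-74 has another (20.6).

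The lists of protein synthesis and traffic held further weak sites. Of 78 cytosolic ribosomal protein genes, 7 (8.97%) had a weak site, rps-11, rpl-19, rpl-39, rps-30, rpl-26, rpl-12 and rpl-31, and 50 had an optimal peak. Among the 28 without an optimal peak 5 had a weak site (17.9%), against 1.64% of all such genes, but rpl-39 and rps-30 share 1 site and rpl-26 shares another with the polyadenylation factor gene cpf-1. Of 70 mitochondrial ribosomal protein genes 3 (4.29%, beside 1.51% of all genes) had a weak site, mrpl-35 (signal 23.3), mrps-18B (22.3) and mrpl-51 (21.8). Splicing and mRNA processing gave 3 of 47 (6.38%; snr-1, cpf-1 and the cap-binding gene ncbp-1), secretion and vesicle traffic 2 of 54 (3.70%; copa-1 and copd-1, both of the COPI coat), and autophagy and the lysosome 3 of 44 (6.82%; vha-1, lmp-1 and vha-19).

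Other lists held 1 to 3 genes with a weak site, too few to set apart from the 1.51% of all genes. They were egg-2 (an oocyte surface protein, signal 12.7) for oocyte genes, pkc-3 (atypical protein kinase C, 19.8) for embryonic polarity, lin-28 (an RNA-binding regulator of larval timing, 20.96) for heterochronic genes, unc-31 (a regulator of dense-core vesicle release, 18.96) for neurons, crn-4 for apoptosis, and ceh-49 (19.4) for homeobox factors. The ztf-3 (21.3) and atf-6 (20.3) genes came from the list of zinc finger and other factors, and cul-3 (19.3), bath-23 (21.3) and bath-29 (20.1) from the cullins and their adaptors.

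In promoter windows, the largest families held few weak sites. The chemoreceptors held 1 gene with such a site among 1308 (0.0765%, beside 1.51% of all genes), sre-1, which shares its site with B0495.9, the F-box proteins 2 among 322 (fbxa-11 and fbxa-67, 1 shared site), the ion channels acr-17 among 158 and the cytochrome P450s cyp-31A5 among 74. The acr-17 summit lay 494 bp past the acr-17 start but 224 bp upstream of F53E10.1. The cyp-31A5 summit lay 588 bp upstream of cyp-31A5 but 195 bp upstream of memi-2. A further weak site lay in an intron of the chemoreceptor gene srt-52. No weak site lay in a promoter window of any of 269 nuclear hormone receptors, 240 C-type lectins, 156 cuticle collagens, 140 neuropeptides, or of the listed genes for spermatogenesis (38), muscle (40), intestine (38) or hypodermis (38). At 1.51% of all genes, none among about 40 genes is near the background and is no result about these lists. Of all 48 lists and families, 26 held no gene with a weak site in its promoter window. Among signalling and factor lists these included vulval, Ras and Notch signalling (33 genes), Wnt signalling (28), TGF-beta, insulin and dauer signalling (35) and bHLH factors (25), though lag-1, the DNA-binding factor of Notch signalling, held a site in an intron. The proteasome (32 genes, 17 with an optimal peak) and nucleoporins (26, with 14) also held none, as did argonaute-type proteins (37), heat shock proteins (22), Rab GTPases (20), kinesin-like proteins (13), dynein and intraflagellar transport (48), peroxisome and lipid oxidation (55), UDP-glucuronosyltransferases (67) and major sperm proteins (31). The lists of the DREAM complex and E2F (9 genes, 6 with an optimal peak), synMuv B (21) and germ granules and small RNAs (45) likewise held none in promoter windows. In the list of the DREAM complex, the exonic sites described above lay inside the dpl-1 and lin-35 genes. Intergenic weak sites lay 1152 bp upstream of rab-10 and 3655 bp upstream of daf-4, outside promoter windows, and are in none of these counts. The families were matched by gene symbol and the lists are not complete, so every count and share, a count of 0 included, covers the listed genes only. The 7 genes listed for complex I of the respiratory chain had no weak site, but ndua-7 (pooled rank 1636) and nduf-6 (2797), complex I subunit genes that the list left out, had one in their promoter windows. Other genes with a weak site in their promoter windows were also left out of the lists, among them prde-1, eftu-2 and pygo-1. The last of these is related to pygopus, which in Drosophila acts in Wnt signalling.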

How the data were processed

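Per the deposited description files, the authors called peaks on each replicate's alignment against a control, on the pooled replicates against the control, and derived the optimal IDR list from these. Which aligner and which peak caller they used is not given in the sources used here. The signal of each peak (column 7) and its −log10 q (column 9) are the authors' deposited values, used only to rank and describe peaks within a list. Each of the input lists held 30000 entries, called peaks here, and the authors label the pooled list as peaks and background. The 2 samples form 1 group. The files hold no counts, so depth is unknown.

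The members, the gene lists and the tests were chosen with earlier results of these data known. Summits were placed on the Ensembl 115 annotation of WBcel235 (634 tRNA genes, 19985 protein-coding genes). Classes outside promoter windows were taken in the order coding exon, other exon part, intron and intergenic. The gene lists were 23 lists written from textbook knowledge and 25 families by gene symbol, and 27 listed names had no annotated protein-coding gene. Named were the genes of the 15 strongest promoter sites, of the 10 sites with the best worse replicate rank, of the 10 strongest sites on X, of the 5 strongest intronic and intergenic sites, of the coding-exon sites, and up to 5 genes per list. Sequences were taken from up to 6 sites on chromosomes II to X. The sites in lin-35 and at close pairs, the threshold cases, T22C1.8, srt-52, lag-1, rab-10, daf-4, ndua-7, nduf-6, pygo-1 and the genes with sites of both kinds were added after their values were seen. Motifs were compared with flanks by two-sided exact sign tests, and the motif code was tested on simulated sequences. Shares carry 95% Wilson intervals and their differences 95% Newcombe intervals, which treat peaks as independent. Python 3.11.15, pandas 2.3.3, numpy 2.4.6, scipy 1.17.1 and matplotlib 3.10.9 were used. Alternatives changed rank limits, match and exclusion distances, replicates, assembly, windows and motif settings. The comparisons limited by rank and the motif count in promoter windows alone were chosen after seeing the data.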

Additional observations from a re-analysis of the deposited data

How the results depend on the processing

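With pooled and replicate limits of 10000 there were 716 sites and 621 genes with a site, with matches in the complete replicate lists 1322 and 973, with matches in the top 3000 114 and 113, and with matches within 50 bp 167 and 182. Matches within 250 bp gave 443 sites. Without replicate 1 there were 1449 sites, 1013 genes and a promoter share of 57.6%, and without replicate 2 there were 913 sites, 743 genes and a promoter share of 62.2%. The promoter share was 67.0% with limits of 10000, 59.2% with the complete lists, 64.8% with windows of 500 bp upstream and 250 bp downstream and 85.9% with windows of 2000 and 1000 bp. The X share was 7.02% with matches in the top 3000, and between that and 12.6% in 12 alternatives. Without the tRNA filter ce11 gave 320 sites and ce10 309.

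The E2F-type difference between summit and flank kept its direction and stayed past 0.05 in all 14 alternatives, from 7.76 to 17.5 points. The CHR-type difference passed the threshold in none, and it was -0.908 points with the complete replicate lists, -0.877 with the top 3000, -1.103 with sites over 2000 bp from optimal summits, -2.93 with the motif within 50 bp, -0.172 within 250 bp and -2.93 with flanks 1000 bp away. It was -0.656 without replicate 1 and 1.81 without replicate 2. The cause of these shifts was not tested, beyond the larger or smaller sets that the settings give. No paired analysis was possible because there was 1 group. With 2 replicates and no counts, no error can be given for the signal or rank of a single site.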

Other observations

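Of the other motifs searched under the weak sites, the GAGA-type GAGAGAG stood at 23 summits (7.93%) and 2.24% of flanks (two-sided exact sign test, adjusted p = 0.0407), with 5.15% in promoter windows of the same length. The share at summits was 8.23% in the optimal IDR peaks and 8.21% in the unmatched peaks, so it did not separate the weak sites from either set (differences -0.295 points, -3.29 to 3.62, and -0.275 points, -3.09 to 3.54). The E-box CACGTG stood at 7.93% of weak summits and 4.66% of flanks (exact sign test, adjusted p = 0.328), and the weak sites differed from the 3.67% of the optimal IDR peaks by 4.26 points (1.45 to 8.04). Against the optimal IDR peaks ranked after 1000, at 4.97%, that difference was 2.96 points (-0.478 to 6.97), an interval that holds 0. The GATA-type TGATAA stood at 11.03% of weak summits and 17.2% of flanks (exact sign test, adjusted p = 0.328), against 9.79% and 17.3% in the optimal IDR peaks.

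Some weak sites lay within 250 bp of genes for small noncoding RNAs other than tRNA. Genes for snoRNA, which guide modification of ribosomal RNA, were near 11 weak sites (3.79%), 45 optimal IDR peaks (3.06%) and 40 unmatched peaks (1.49%). Genes for snRNA, the RNAs of the spliceosome, were near 3 weak sites (1.03%), 7 optimal IDR peaks (0.476%) and 18 unmatched peaks (0.668%). The snRNA genes near weak sites were H27M09.6, T08G5.11 and ZK897.4. H27M09.6 bears the same clone name as H27M09.5, the other gene at the syp-4 site. No weak site lay near any of 261 miRNA genes. Of the 215 peaks removed as lying near a tRNA gene, 30 (13.95%) met all other conditions of a weak site.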
